A study of Mus musculus with 8 samples.

Results

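Cholesterol synthesis and its sterol control are followed here through 27 genes in the livers of mice given oxaliplatin and of control mice. The genes were taken by name: every non-control probe whose gene name or transcript accession maps to 1 of the 27 symbols was used. They comprise 19 enzymes of cholesterol synthesis and its isoprenoid branch, 4 genes of the SREBP2 control system and 4 genes of sterol uptake and trafficking. The enzymes do not cover every step to cholesterol. All 27 were on the array, which carried 21252 gene symbols, and all 27 passed the filter on dim probes and were tested, among 13913 genes. The oxaliplatin group consisted of 4 male mice injected intraperitoneally with oxaliplatin, a platinum drug used against colorectal cancer, once a week for 6 weeks. The schedule is meant to reproduce sinusoidal obstruction syndrome of the liver, in which the lining of its small vessels is damaged. The control group consisted of 4 male mice described only as normal, and strain, age, dose and any vehicle injection are not given in the sources used here. RNA of each liver was hybridised to 1 Agilent one-colour array.

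Cells make cholesterol from acetyl-CoA through mevalonate, isoprenoid diphosphates, squalene and lanosterol, and the liver is a major site of this synthesis. SREBP2, encoded by Srebf2, is a transcription factor held in the endoplasmic reticulum by SCAP and the INSIG proteins when membrane sterols are high. When sterols fall, SCAP escorts it to the Golgi, where it is cut, and the released part enters the nucleus and raises transcription of the synthesis and uptake genes, Srebf2 and Insig1 among them.

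Signals are given as log2 levels relative to each array's 75th percentile, so that 0 is the level of that percentile. Differences are oxaliplatin minus control on the log2 scale, with the moderated SE of limma and 4 arrays per group. Levels are not compared between genes, since probes differ in brightness. A gene was called lower or higher at a Benjamini-Hochberg adjusted p under 0.05 over all 13913 genes. By this rule 11.6% of all genes were lower and 6.99% were higher, and the median difference over all genes was -0.09. Between 27.2% and 38.7% of probes were well above background on the oxaliplatin arrays and between 36.1% and 40.9% on the control arrays (two-sided exact permutation test, p = 0.229, smallest possible p = 0.0286, n = 4 per group). Each group filled 1 slide and 1 scan, so slide, scan and treatment cannot be told apart. The scanner files of oxaliplatin replicates 1 and 2 bear a run name that differs from that of the other 6 arrays, and values within the shared run name are given below. All 10 hepatocyte markers were measured on every array. Of 15 targets of p53, a factor that platinum-induced DNA damage is known to activate, 11 were lower and 0 were higher on the arrays labelled oxaliplatin, which is opposite to that known action. Phlda3, a p53-induced inhibitor of AKT signalling, averaged 0.83 ± 0.23 on the oxaliplatin arrays and 4.40 ± 0.27 on the control arrays (SD, n = 4 each), with an adjusted p of 0.000214. Ccng1, which encodes cyclin G, differed by -1.58 with an adjusted p of 0.000889. Eda2r, a receptor of the tumour necrosis factor family, was well above background on 0 of 4 oxaliplatin arrays and on 4 of 4 control arrays. Its signal was at least 6.4-fold lower in the oxaliplatin group. Like Psrc1, another of the 11, it passed the filter only through the control group, and neither adds support to that count. All directions below follow the group labels.

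Of the 27 genes, 7 were lower and 1 was higher in the oxaliplatin livers, and 19 did not pass, against 11.6% of all genes lower and 6.99% higher. The 7 lower genes make up 25.9% of the 27. They were Mvk, Ggps1, Fdft1, Sqle and Msmo1 among the enzymes, Srebf2 itself, and Stard4, and the higher gene was Mylip. The median difference of the 27 was -0.49, while 17 of them (63%) had a negative difference, against 59.4% of all genes. The groups did not overlap in 8 genes on the lower side and in 1 on the higher side, compared with 18.4% and 9.26% of all genes. At an unadjusted p under 0.05 in limma, 11 of the 27 were lower and 2 were higher, against 22.9% and 13.1% of all genes. Since RNA came from whole liver, fewer cells of a type and less RNA per cell cannot be told apart for any of these values. Where nothing further is said, p-values measure the spread between 4 livers per group, which the labels describe as replicates.

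**Figure D1:**
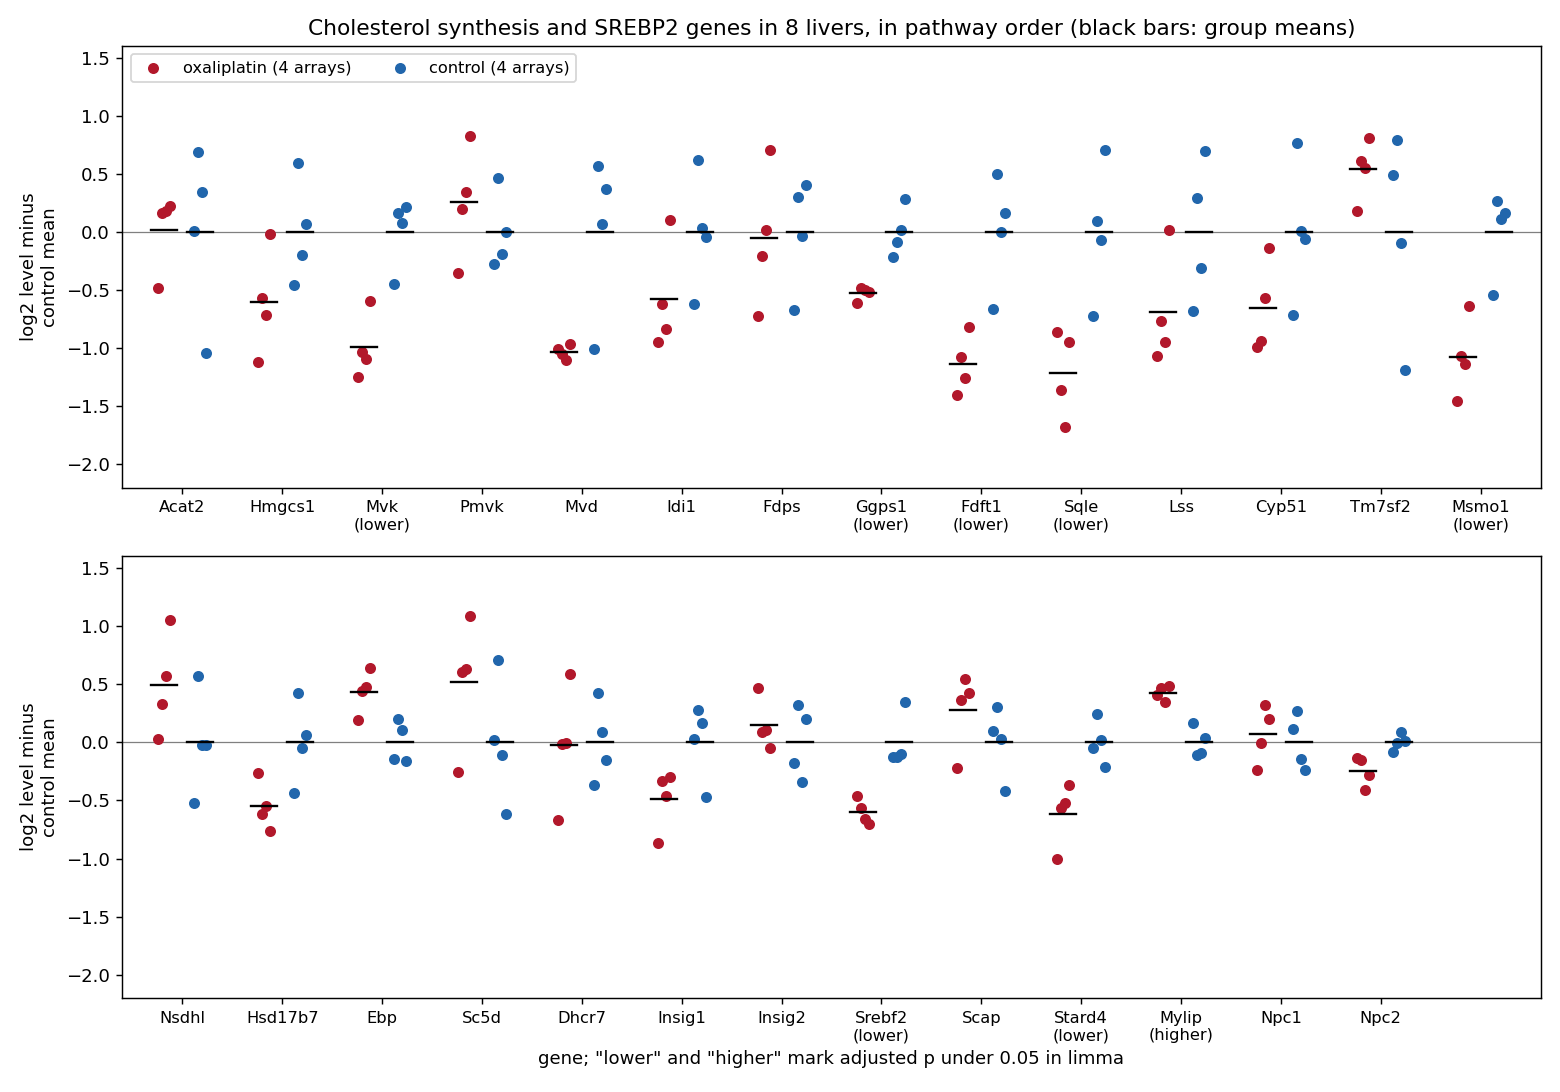
Log2 level of each of the 27 genes on each array, minus the gene's control mean, in pathway order from the thiolase to the lysosomal sterol carriers. Red points are the 4 oxaliplatin arrays, blue points the 4 control arrays and black bars the group means; 7 genes marked lower and 1 marked higher passed the test, and the 3 enzymes between farnesyl diphosphate and lanosterol all lie below 0 on average.

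The first steps condense acetyl-CoA to hydroxymethylglutaryl-CoA, and neither of the 2 genes measured here passed. Acat2, the cytosolic acetoacetyl-CoA thiolase, differed by 0.02 ± 0.35 (adjusted p = 0.973), a difference whose sign turned under several settings. Its levels were 7.33, 7.97, 7.99 and 8.03 on oxaliplatin replicates 1 to 4 and 7.82, 8.50, 8.15 and 6.77 on control replicates 1 to 4, so control replicate 4 was lower than every oxaliplatin array. The probe is also listed for Acat3, so the transcripts of these neighbouring thiolase genes cannot be separated by it. Hmgcs1, the cytosolic synthase of hydroxymethylglutaryl-CoA, differed by -0.61 ± 0.28 (adjusted p = 0.158), with levels between 7.38 and 8.47 in the oxaliplatin group and between 8.03 and 9.08 in the control group.

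Of the 6 genes that take mevalonate to the isoprenoid diphosphates, Mvk and Ggps1 were lower, 5 had a negative difference and the median was -0.55. Mvk encodes mevalonate kinase, which adds the first phosphate to mevalonate. Its levels were 5.37, 5.59, 5.54 and 6.03 on oxaliplatin replicates 1 to 4, and 6.18, 6.78, 6.70 and 6.84 on control replicates 1 to 4. The highest oxaliplatin array stayed below the lowest control array. The difference of -0.99 ± 0.19 corresponds to a 1.99-fold lower signal (adjusted p = 0.0139). Ggps1 makes geranylgeranyl diphosphate, a lipid attached to small GTPases, and so stands on a branch beside cholesterol. Its catalogue probe, at chr13:14146052-14146111 of mouse build mm9 on the minus strand, read 2.03, 2.15, 2.14 and 2.12 on the oxaliplatin arrays against 2.43, 2.55, 2.66 and 2.93 on the control arrays. The oxaliplatin arrays lay within a narrow band below all 4 controls, with a difference of -0.53 ± 0.12 (adjusted p = 0.0225).

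Mvd, the diphosphomevalonate decarboxylase, narrowly missed the threshold. Its levels were 4.46, 4.42, 4.37 and 4.50 in the oxaliplatin group, and 4.46, 6.04, 5.54 and 5.84 in the control group. Control replicate 1 thus lay at the level of the oxaliplatin arrays, while the other 3 controls were all higher. The difference was -1.03 ± 0.31 (adjusted p = 0.0503), and in the fit over all probes the same probe and a second one both passed. Idi1, the isomerase that makes the pathway's reactive isoprene unit, differed by -0.58 ± 0.30 (adjusted p = 0.204). Pmvk, the phosphomevalonate kinase between Mvk and Mvd, differed by 0.25 ± 0.26 (adjusted p = 0.514), with a positive value at each of its 3 probes. Median centring of the arrays turned that value negative. Fdps, which makes farnesyl diphosphate, differed by -0.05 ± 0.33 (adjusted p = 0.926), and its oxaliplatin range of 7.18 to 8.60 enclosed its control range of 7.23 to 8.31.

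All 3 genes between farnesyl diphosphate and lanosterol had a negative difference, with a median of -1.14, and Fdft1 and Sqle passed. Fdft1 encodes squalene synthase, the first enzyme committed to sterols. Its probe, whose mm9 interval chr14:63765769-63770009 is longer than the probe and so crosses at least 1 intron, read 4.14, 4.47, 4.29 and 4.73 in the oxaliplatin group and 4.88, 6.04, 5.54 and 5.71 in the control group. All oxaliplatin arrays were below all control arrays, although oxaliplatin replicate 4 and control replicate 1 lay close together. The difference was -1.14 ± 0.24, a 2.20-fold lower signal (adjusted p = 0.0191). Sqle encodes squalene epoxidase, the enzyme that adds oxygen to squalene and a known control point of the pathway. Levels of Sqle were 6.32, 5.82, 5.50 and 6.23 on the oxaliplatin arrays, compared with 6.45, 7.28, 7.11 and 7.88 on the control arrays. Again the groups did not overlap, with control replicate 1 nearest to the oxaliplatin arrays. The difference was -1.21 ± 0.31, a 2.32-fold lower signal (adjusted p = 0.0309). Lss, the cyclase that folds squalene epoxide into lanosterol, differed by -0.69 ± 0.34 and did not pass (adjusted p = 0.181).

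The 8 genes measured between lanosterol and cholesterol had differences of both signs, between -1.07 and 0.54, and 4 were negative. Only Msmo1 passed among these 8. Msmo1 encodes the methylsterol monooxygenase that removes methyl groups from the sterol nucleus. Its probe at chr8:67196982-67197041 (mm9, minus strand) read 7.68, 8.06, 7.99 and 8.50 in oxaliplatin livers, and 8.59, 9.40, 9.24 and 9.30 in control livers. The groups were separate, with oxaliplatin replicate 4 and control replicate 1 adjacent, and the difference was -1.07 ± 0.22, a 2.10-fold lower signal (adjusted p = 0.0175). Nsdhl, the dehydrogenase that acts on the same methyl groups after Msmo1, had a difference of 0.49 ± 0.27 (adjusted p = 0.228). Hsd17b7, the keto reductase that completes each of these demethylation rounds, differed by -0.55 ± 0.19 (adjusted p = 0.0764). Steps of a single reaction sequence thus carried values of both signs, of which only that of Msmo1 passed.

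Ebp, the sterol isomerase of the late pathway, had a positive difference that missed the threshold at its brightest probe. Levels of Ebp were 9.17, 9.42, 9.45 and 9.61 on the oxaliplatin arrays against 8.84, 9.18, 9.09 and 8.82 on the control arrays. Oxaliplatin replicate 1 lay just below control replicate 2, and the other 3 oxaliplatin arrays were above all controls. The difference was 0.43 ± 0.13 (adjusted p = 0.0543), and -0.19 under median centring. Cyp51, the lanosterol demethylase, differed by -0.66 ± 0.32 at its brightest probe (adjusted p = 0.171). Its other kept probes had differences of -0.09, -0.20 and 0.07, and none passed. The sterol reductase gene Tm7sf2 and the desaturase gene Sc5d had differences of 0.54 ± 0.39 (adjusted p = 0.356) and 0.52 ± 0.34 (adjusted p = 0.305). Dhcr7, the dehydrocholesterol reductase, differed by -0.02 ± 0.27 (adjusted p = 0.959). The control arrays of Tm7sf2 spread from 6.95 on replicate 4 up to 8.93 on replicate 2, and this range enclosed 3 of the 4 oxaliplatin arrays.

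In the control system, Srebf2 was lower and the 3 genes of its retention and escort did not pass. Srebf2 levels were 2.38, 2.28, 2.19 and 2.15 on the oxaliplatin arrays and 2.72, 2.72, 2.75 and 3.19 on the control arrays. Every oxaliplatin array was below every control array, and control replicate 4 stood above the other 3 controls. The difference was -0.60 ± 0.13, a 1.51-fold lower signal (adjusted p = 0.0204). Insig1, which retains SREBP2 and is itself an SREBP target, differed by -0.49 ± 0.19 (adjusted p = 0.106), and control replicate 4 at 6.61 was the only control within the oxaliplatin range of 6.21 to 6.78. Insig2, the second retention protein, which in liver is not driven by SREBP2, differed by 0.15 ± 0.18 (adjusted p = 0.574). Scap, the escort, differed by 0.28 ± 0.21 (adjusted p = 0.367). Median centring turned the Insig2 and Scap values negative, and normexp background correction turned that of Insig2.

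Among the uptake and trafficking genes, Stard4 was lower and Mylip was higher. Stard4 encodes a soluble sterol carrier and is a known SREBP2 target. It read 3.36, 3.80, 3.84 and 4.00 in the oxaliplatin livers against 4.32, 4.61, 4.39 and 4.15 in the control livers. The groups did not overlap and differed by -0.61 ± 0.16 (adjusted p = 0.0339). Mylip encodes a ubiquitin ligase that limits lipoprotein uptake and is known as a target of the sterol-sensing LXR receptors. Its probe at chr13:45506979-45507038 (mm9, plus strand) read 3.86, 3.93, 3.81 and 3.95 on the oxaliplatin arrays, and 3.62, 3.35, 3.37 and 3.49 on the control arrays. All oxaliplatin arrays were above all controls, by 0.43 ± 0.10 (adjusted p = 0.0223). The Mylip difference was 0.54 with the percentile over probes above background on all arrays and 0.53 under quantile normalization and in the series matrix values. With normexp background correction it was 0.35. Under median centring it was -0.20 and did not pass. That scaling shifts all genes alike, to a median of -0.71. The place of Mylip above the median of all genes is therefore fixed beforehand and is no check of the call. Npc1 and Npc2, the membrane and soluble proteins that hand cholesterol out of lysosomes, differed by 0.07 ± 0.16 (adjusted p = 0.790) and -0.25 ± 0.10 (adjusted p = 0.109) at their brightest probes.

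The array carried 73 probes for these genes, 46 of the catalogue design and 27 custom, and 71 were kept. Fitted over all 54636 kept probes, 17 of the 71 were lower and 4 were higher, against 11% lower and 7.42% higher over all probes. All kept probes had the same sign in 22 genes, and in 5 genes (Cyp51, Dhcr7, Scap, Npc1 and Npc2) the signs were mixed. No gene had both a lower and a higher probe by the test. Both probes of Mvd passed, at -1.03 (adjusted p = 0.0473) and -0.97 (adjusted p = 0.0321), as did both probes of Fdft1, Sqle and Msmo1. The dimmer Fdft1 probe was above background on 2 of 4 oxaliplatin arrays and on 4 of 4 control arrays. Its groups overlapped (adjusted p = 0.0489), and it needed the control arrays to pass the filter. Though counted among the 17 lower probes, it adds no support to the Fdft1 call. A custom probe for Ebp was higher by 0.58 ± 0.16 (adjusted p = 0.036), with oxaliplatin levels of 8.90 to 9.57 above control levels of 8.49 to 8.86. Of the 3 Srebf2 probes, the pair measured on all 8 arrays was lower, by -0.60 and -0.79. The remaining one, at chr15:82007873-82007932 (mm9), was above background on 0 of 4 oxaliplatin and 4 of 4 control arrays. It passed the filter only through the control group, is 1 of the 17 lower probes counted above, and adds no support to the Srebf2 call. Its signal was at least 1.22-fold lower in the oxaliplatin group.

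Probes of 1 gene did not always give the same value. Ggps1 had differences of -0.53 at the probe described above, -0.05 ± 0.13 (adjusted p = 0.829) at a custom probe of similar brightness and -0.69 ± 0.25 (adjusted p = 0.0865) at a dimmer one. Its call therefore rests on 1 of 3 probes. The less bright Npc1 probe, at chr18:12349340-12349399 (mm9), read 3.49, 3.51, 3.57 and 3.44 on the oxaliplatin arrays and 4.21, 4.32, 4.08 and 4.20 on the control arrays. This separation of -0.70 ± 0.10 (adjusted p = 0.00516) has no counterpart at the brighter Npc1 probe. For Npc2, the dimmer custom probe gave 2.02, 2.38, 2.13 and 2.05 in the oxaliplatin group against 1.45, 1.33, 1.67 and 1.04 in the control group, a difference of 0.77 ± 0.16 (adjusted p = 0.0147), opposite in sign to the brighter probe. The levels of neither lysosomal gene can be given a direction across its probes. Stard4 was lower at 2 of its 4 probes, with differences between -0.61 and -0.14.

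**Figure D2:**
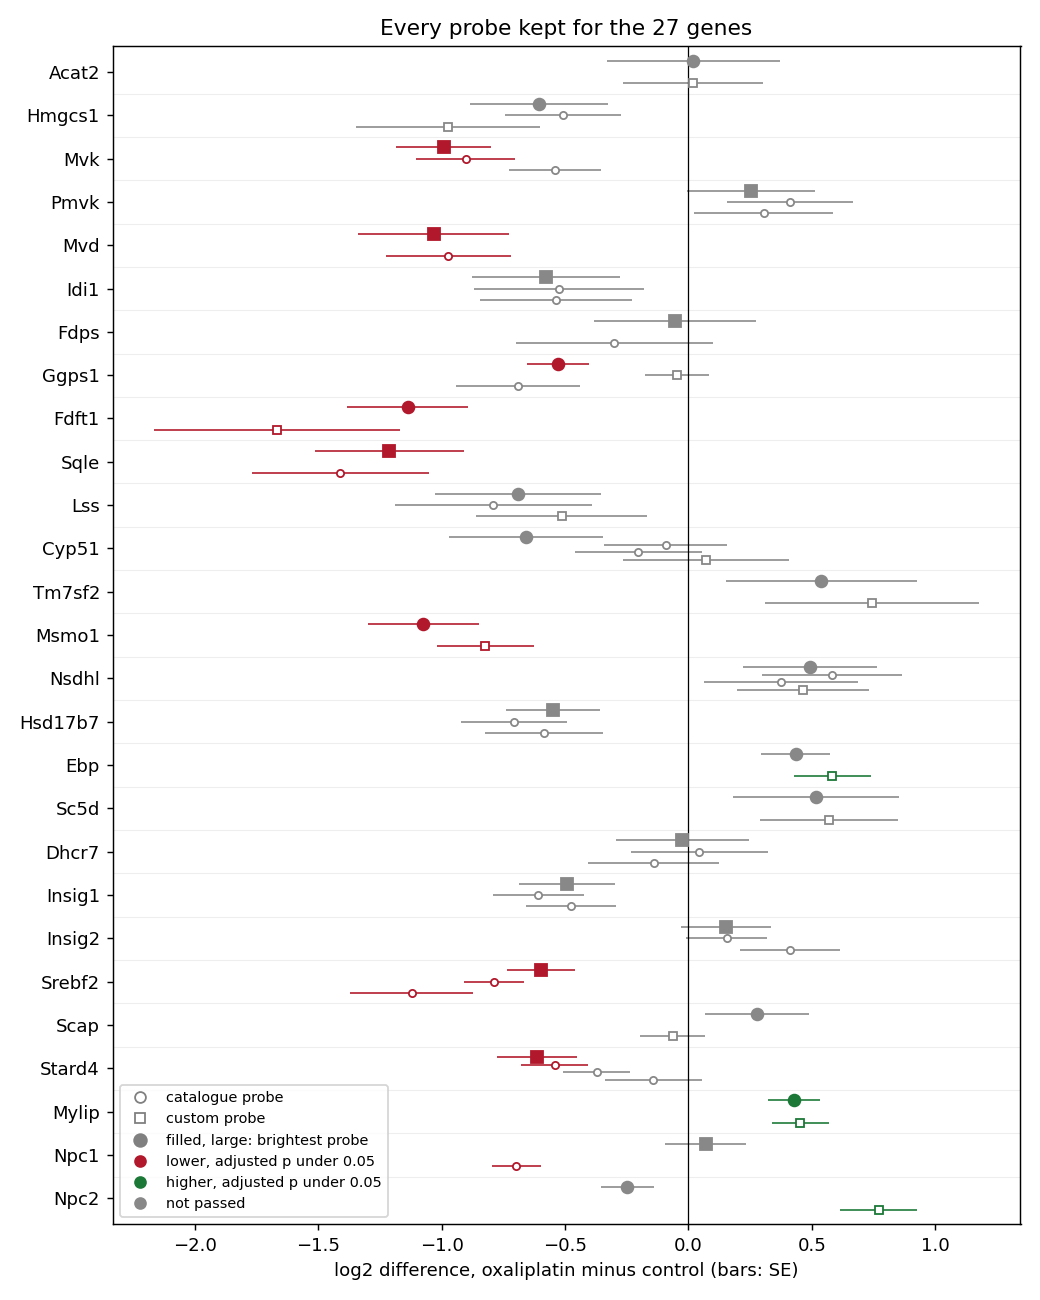
Log2 difference, oxaliplatin minus control, with its SE, at each of the 71 kept probes of the 27 genes. Circles are catalogue probes, squares custom probes and large filled symbols the brightest probe of a gene; 17 probes are lower (red), 4 are higher (green), and Npc1 and Npc2 show probes that differ in sign.

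Promoter sequences of these genes are shown because SREBP2 is known to bind short sterol elements next to boxes of the factors NF-Y and Sp1. Start sites and sequences are those of RefSeq on build GRCm38.p6, from 250 bases before to 50 bases after the start, and 22 of the 27 genes had an entry. The sterol element was searched as TCACNCCAC, the NF-Y box as CCAAT and the Sp1 box as GGGCGG, on both strands. The element TCACNCCAC was in 1 of the 22 genes, Hmgcs1, 137 bases before its start, and in 1.45% of all tested genes with a promoter. A shorter form that drops the last base, TCACNCCA, was added after the sequences had been read. It was in 3 genes (Hmgcs1, Msmo1 and Srebf2) and in 4.53% of the tested genes. CCAAT was in 20 of the 22 genes, against 42.6% of tested genes, and GGGCGG in 20 of the 22, against 63.6%. The 200 bases before the start are printed for the 3 genes with the shorter form and for Mvk, which holds 5 NF-Y boxes there, all chosen after their values and matches were seen. Capitals mark TCACNCCA or TCACNCCAC matches and CCAAT boxes on either strand (ATTGG on the strand printed).
Hmgcs1, chr13:119690151-119690350, plus strand: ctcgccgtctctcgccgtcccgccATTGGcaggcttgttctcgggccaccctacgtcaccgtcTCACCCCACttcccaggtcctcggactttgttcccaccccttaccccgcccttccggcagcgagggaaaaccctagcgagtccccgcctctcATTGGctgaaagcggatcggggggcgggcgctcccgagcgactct
Mvk, chr5:114444069-114444268, plus strand: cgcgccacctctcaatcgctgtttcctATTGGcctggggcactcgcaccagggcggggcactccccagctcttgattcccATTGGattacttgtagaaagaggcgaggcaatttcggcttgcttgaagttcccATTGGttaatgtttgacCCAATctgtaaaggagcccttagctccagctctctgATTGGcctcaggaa
Msmo1, chr8:64733579-64733778, minus strand: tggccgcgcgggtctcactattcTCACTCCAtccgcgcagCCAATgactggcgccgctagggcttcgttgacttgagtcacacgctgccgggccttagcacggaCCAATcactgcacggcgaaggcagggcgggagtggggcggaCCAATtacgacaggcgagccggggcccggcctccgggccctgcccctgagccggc
Srebf2, chr15:82147069-82147268, plus strand: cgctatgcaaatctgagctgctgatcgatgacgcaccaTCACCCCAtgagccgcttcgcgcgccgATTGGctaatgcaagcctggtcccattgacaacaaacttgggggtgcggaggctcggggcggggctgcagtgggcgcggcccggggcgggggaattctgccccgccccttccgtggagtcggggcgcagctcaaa
The Srebf2 match begins 162 bases and the Msmo1 match 177 bases before the start. A match describes letters only: Hmgcs1, with the full element, did not pass the test, whereas Mvk passed without either form in the window. Mylip, the gene that was higher, also holds 3 NF-Y boxes in its 200 bases.

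The 8 livers differed in how these genes ran together. The mean deviation of the 27 genes from their 8-array means was -0.41, -0.16, -0.16 and 0.15 on oxaliplatin replicates 1 to 4, and -0.15, 0.50, 0.12 and 0.11 on control replicates 1 to 4. Over the 19 enzymes the values were -0.51, -0.21, -0.22 and 0.21 in the oxaliplatin group and -0.24, 0.62, 0.17 and 0.17 in the control group. Oxaliplatin replicate 4 and control replicate 1 thus crossed the other group's range, and the module mean did not separate the treatments. Oxaliplatin replicate 1 was the lowest of its group in 20 of the 27 genes and replicate 4 the highest in 19. Control replicate 1 was the lowest control in 17 genes and control replicate 2 the highest in 19. These counts cover genes that share an array, and they are given without a test.

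**Figure D3:**
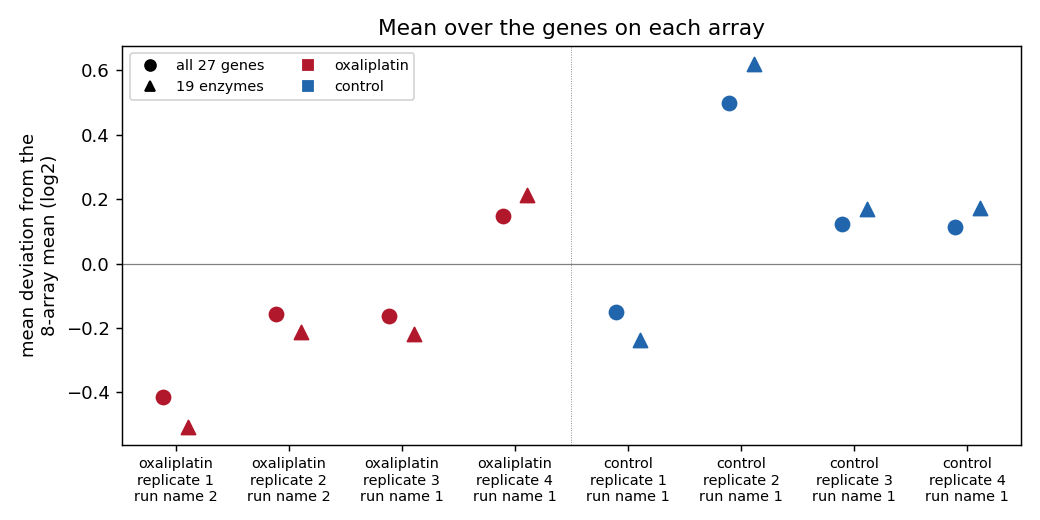
Mean deviation of the 27 genes (circles) and of the 19 enzymes (triangles) from each gene's 8-array mean, in log2 units, on each array, oxaliplatin in red and control in blue. Oxaliplatin replicate 4, at 0.15 over 27 genes, lies above 3 of the 4 controls, and control replicate 1, at -0.15, lies at the level of oxaliplatin replicates 2 and 3.

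Restricted to the 6 arrays of the shared run name, oxaliplatin replicates 3 and 4 against the 4 controls, none of the 27 genes passed, while 1.87% of all genes were lower and 1.83% higher. At an unadjusted p under 0.05 in limma, 9 of the 27 were lower and 3 higher in those 6 arrays, against 14.9% and 11.1% of all genes. With all 8 arrays and the run name as a covariate the counts were again 0 and 0, with 3.37% of all genes lower and 3.24% higher. The other run name held oxaliplatin arrays alone, so this fit takes each difference from the same 6 arrays. It is therefore no separate check. In every called gene the groups did not overlap over the 8 arrays, so the sign of its difference could not turn on fewer arrays. Within the shared run name the differences of the called genes were -0.84 for Mvk, -0.51 for Ggps1, -1.04 for Fdft1, -1.31 for Sqle and -0.89 for Msmo1. Those of Srebf2, Stard4 and Mylip were -0.68, -0.44 and 0.42. Their adjusted p-values there ran from 0.0829 for Srebf2 up to 0.15 for Stard4. Ebp had 0.55 (adjusted p = 0.0993) and Nsdhl 0.81 (adjusted p = 0.167) on these arrays. Fdps and Dhcr7, both slightly negative over 8 arrays, were at 0.36 and 0.29.

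Over all genes, fewer were called lower and fewer higher whichever single array was left out. Among the 27 genes the counts did not always fall. Without control replicate 1 or 4, 8 of the 27 were lower and 1 higher, against 10.8% and 9.93% of all genes lower. The shares of all genes higher there were 5.94% and 6.17%. Without control replicate 2 or oxaliplatin replicate 1, 5 were lower and 2 higher, against 9.24% and 7.01% of all genes lower. Here 6.99% and 5.23% of all genes were higher. Without oxaliplatin replicate 3 only Mvk was still lower and none of the 27 was higher, while 4.01% of all genes were lower. Without control replicate 3 there were 2 lower genes and 0 higher, against 4.54% of all genes lower. Leaving out oxaliplatin replicate 2 or 4 gave 4 lower and 0 higher in each case, against 5.75% and 5.7% of all genes lower. Under the 20 alternatives run, Mvk kept its call in 18, Fdft1 and Msmo1 in 16 each, Srebf2 in 15, Sqle and Mylip in 12 each, and Ggps1 and Stard4 in 11 each. Median centring lowered every one of the 27 differences, leaving all 27 negative, with 17 genes lower against 69.6% of all genes.

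**Figure D4:**
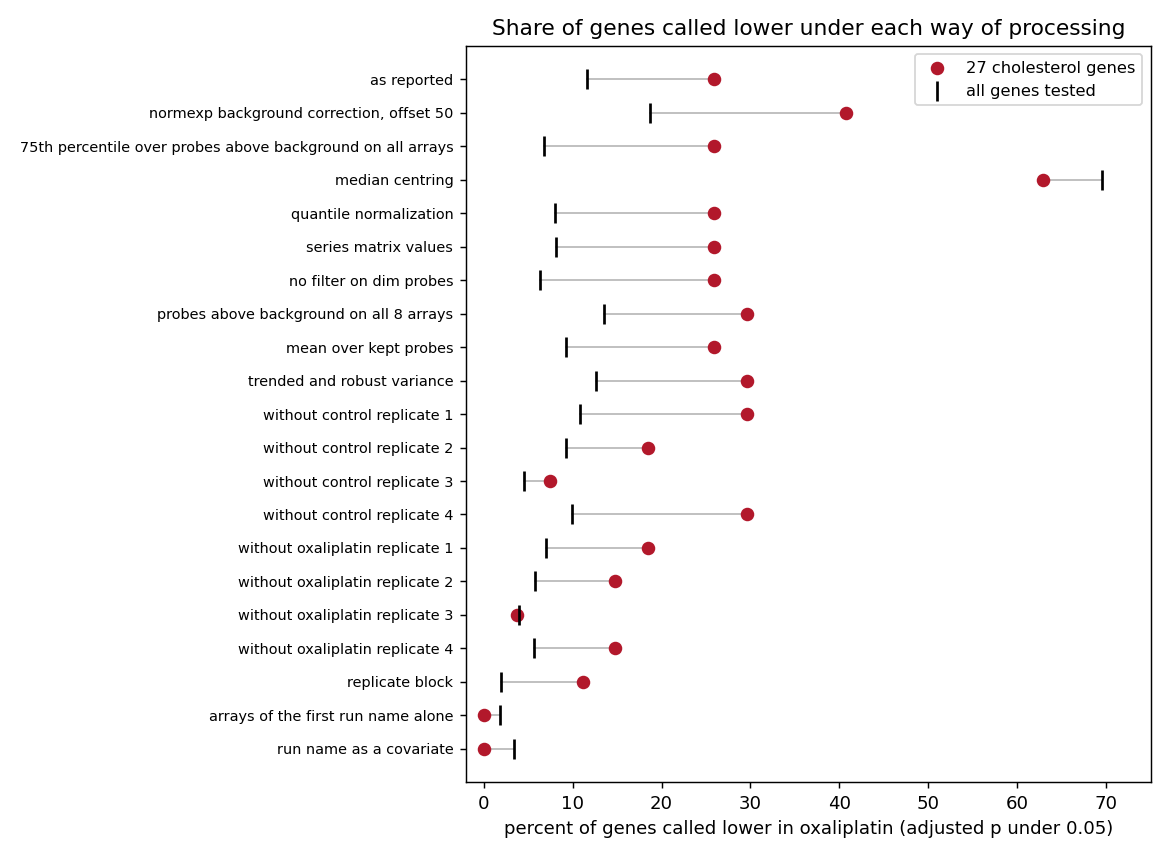
Percent of genes called lower in oxaliplatin under each way of processing, for the 27 cholesterol genes (red points) and for all genes tested (black ticks). The 27 genes lie above all genes as reported, at 25.9% against 11.6%, and at or below them under median centring, without oxaliplatin replicate 3 and in both run name settings.

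Genes that neighbour the pathway were counted by the same rule, from lists drawn up with earlier results of these data known. The counts stand against 11.6% of all genes lower and 6.99% higher. At an unadjusted p under 0.05 in limma those shares were 22.9% and 13.1%. Of 4 genes that supply acetyl-CoA to the cytosol, 0 passed (median 0.09), and at an unadjusted p under 0.05 1 was lower. The closest to the threshold were Aacs, which makes acetoacetyl-CoA from ketone bodies, at -0.94 ± 0.35 (adjusted p = 0.0931), and Acss2, the cytosolic acetyl-CoA synthetase, at 0.65 ± 0.34 (adjusted p = 0.199). Aacs showed the array pattern of Mvd: control replicate 1, at 2.98, lay within the oxaliplatin range of 2.92 to 3.53, and the other controls were at 4.21 or above. Of 11 further genes listed for SREBP processing or for endoplasmic reticulum degradation, 2 (18.2%) were lower and 0 higher, with a median of -0.25. These were Aup1, a lipid droplet protein of endoplasmic reticulum degradation, at -0.44 ± 0.10 (adjusted p = 0.021), and Ubxn8, an anchor of the same degradation machinery, at -0.50 ± 0.13 (adjusted p = 0.0339). In the isoprenoid branch, 2 of 13 genes (15.4%) were lower and 0 higher, with a median of -0.14. Nus1, a subunit of the enzyme that makes dolichol chains, differed by -0.41 ± 0.09 (adjusted p = 0.0213), and Rabggtb, a subunit of the enzyme that prenylates Rab proteins, by -0.45 ± 0.13 (adjusted p = 0.0398).

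Among 21 genes of sterol export, conversion and esterification, 1 was higher and 1 was lower (4.76% each), with a median of -0.04. Of all genes, 6.99% were higher and 11.6% lower. Cyp7b1, the hydroxylase of oxysterols in the alternative bile acid route, read 7.55, 7.74, 8.17 and 8.58 in oxaliplatin livers and 5.75, 6.23, 7.24 and 5.36 in control livers. The groups were separate, and the difference was 1.87 ± 0.40 (adjusted p = 0.019). Soat2, which esterifies cholesterol in hepatocytes, read 1.32, 1.47, 1.53 and 1.28 on the oxaliplatin arrays and 1.92, 2.12, 2.27 and 2.69 on the control arrays, a difference of -0.85 ± 0.16 (adjusted p = 0.0139). Of 13 genes of fatty acid synthesis, many of them targets of the related factor SREBP1, 1 was higher and 1 lower, with a median of 0.31. Acacb, the acetyl-CoA carboxylase of the mitochondrial surface, differed by 1.11 ± 0.16 (adjusted p = 0.00559), and Lpin1, a phosphatidate phosphatase, by -2.19 ± 0.52 (adjusted p = 0.0254).

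Genes outside sterol metabolism also differed between the groups, and their part in the values above was not tested. Their counts, too, stand against 11.6% of all genes lower and 6.99% higher. Of 17 clock genes, which time hepatic lipid synthesis over the day, 7 were lower and 0 higher, with a median of -0.56. Hlf differed by -0.72 ± 0.10 (adjusted p = 0.00497), the repressor Ciart by -3.28 ± 0.64 (adjusted p = 0.014) and Per1 by -1.64 ± 0.33 (adjusted p = 0.0151). Among the 10 hepatocyte markers, 5 were higher and 0 lower, with a median of 0.21. Differences were negative in 3 of them, including Tat at -0.57 ± 0.23 (adjusted p = 0.11). The summed linear level of the 10, relative to the 75th percentile, was 15670 to 17230 on the oxaliplatin arrays and 13940 to 14130 on the control arrays. In such a sum the brightest probes weigh most. Alb, which encodes albumin, was higher by 0.56 ± 0.08 (adjusted p = 0.00708), Apoa2 by 0.42 ± 0.09 (adjusted p = 0.0178) and Serpina1c by 0.41 ± 0.09 (adjusted p = 0.02).

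Markers of other cells were counted likewise, against 11.6% of all genes lower and 6.99% higher. Their part in the values of the cholesterol genes was not tested. Of 7 erythroid genes 4 were higher, with Alas2 at 2.39 and Hbb-bs at 1.94, and their summed level was 2918 to 5815 on the oxaliplatin arrays and 693.8 to 3627 on the control arrays. Of 7 platelet genes 3 were lower (Itgb3 at -2.12, Pf4 at -1.78 and Itga2b at -1.48), with sums of 13.4 to 18.8 in the oxaliplatin group and 37.5 to 112.7 in the control group. Itga2b was above background on 2 of 4 oxaliplatin and 4 of 4 control arrays. It needed the control arrays to pass the filter and adds no support to that count. Of 10 sinusoidal endothelial genes Cd34, at -0.83, and Lyve1, at -1.49, were lower, but the median was -0.0073. While 6 differences were negative, those of Stab2 (0.31), Mrc1 (0.32), Oit3 (0.49) and Fcgr2b (0.17) were positive and did not pass. The sums of the sinusoidal endothelial list, 420.3 to 546.4 and 449.5 to 524.3 on oxaliplatin and control arrays, overlapped. Of 10 Kupffer cell genes, with a median of 0.33, Marco was lower by -2.26 and the other 9 had positive differences that did not pass, among them Clec4f at 0.59 and Vsig4 at 0.65, whose groups did not overlap. The Kupffer cell list had sums of 811.5 to 1686 in the oxaliplatin group and 843.9 to 1793 in the control group. Of 10 stellate cell genes Dcn was lower by -0.39, while 5 differences were negative and 5 positive with a median of 0.0045, and the collagen genes Col1a1 and Col3a1 had 1.24 each without passing (adjusted p = 0.101 and 0.131). The stellate cell list had sums of 412.1 to 515.1 and 425.1 to 608.1 on oxaliplatin and control arrays. Of 9 lymphocyte genes Cd3e, at 0.67, and Cd3d, at 0.75, were higher, with sums of 40.8 to 66.3 in the oxaliplatin livers and 33.1 to 61.8 in the control livers. None of 6 cholangiocyte, 5 neutrophil, 4 skeletal muscle and 2 adipocyte genes passed, and Adipoq and Lep were above background on no array. Of 3 pancreatic genes Pnlip was higher by 1.66, while Cpa1, Cela3b, Prss2 and Amy2b were above background on no array.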

How the data were processed

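RNA of 8 mouse livers, 4 oxaliplatin and 4 control, was measured on Agilent one-colour arrays. Per the file headers, the authors read the arrays with Feature Extraction 12.0.3.1, whose processed signal is a linear intensity, background-subtracted and detrended within each array and not normalized between arrays. The submitters' processing notes name Agilent Feature Extraction 10.7 and limma, and the headers were followed. The deposited mean spot signals and local backgrounds are intensities too. The deposited series matrix holds log2 values of 46867 probes, whose normalization and centring are not given in the sources used here; its columns have medians between 5.76 and 5.83 and correlated with the log2 processed signal within each array at r between 0.9964 and 0.9998 across probes.

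From these files the processed signal was taken to log2, each array's 75th percentile over 149782 non-control probes was subtracted, and outlier spots were left out. Probes well above background on at least 4 of 8 arrays were kept, whatever their group, and each gene was represented by its brightest kept probe. Probes were named by accession through RefSeq (47985 of 48257 curated accessions matched; assembly GRCm38.p6), and for 147 catalogue probes the deposited name was retained. Probe positions are those of the files (mm9). The 2-group fit used limma 3.58.1 under R 4.3.3 (lmFit, then eBayes; 6 residual and 2.37 prior degrees of freedom), and p-values were adjusted by Benjamini-Hochberg. For a probe above background on no oxaliplatin array, the fold is a bound: the control mean over the oxaliplatin mean, with any array below its lowest signal well above background raised to that signal. Precision is limited by the number of arrays. Tested on simulated data for this comparison, with 200 of 13913 genes changed, the fit recovered 68% of changes of 1 log2 unit and 88% of those of 2, with 6 false among 162 calls.

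The members and all gene lists were chosen with earlier results of these data known. All 27 members are named; of each other list the 3 called genes with the smallest adjusted p are named, or all if fewer, or the 2 closest if none was called. One gene picked by this rule is not reported here. Promoters were to be printed for called members holding TCACNCCAC, of which there were none. Alternatives covered background correction, scaling, the deposited log2 values, the dim-probe filter, probe choice, variance model, each array left out, the run name and a replicate block. Same-numbered oxaliplatin and control arrays did not deviate together (r between -0.322 and -0.083), so the numbers were not taken as pairs. Tables were read with pandas 2.3.3 and numpy 2.4.6 under Python 3.11.15, and plots drawn with matplotlib 3.10.9.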

Additional observations from a re-analysis of the deposited data

Results flagged for a closer look

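Among 56 sets of 4 arrays (27 genes and the share of probes above background, in each group), 2 held an array that stood apart from the other 3 by Dixon's test, where chance alone gives about 5% of sets. Acat2 on oxaliplatin replicate 1 was at 7.33, with the other oxaliplatin arrays between 7.97 and 8.03 (gap over range 0.917). Srebf2 on control replicate 4 was at 3.19, with the other controls between 2.72 and 2.75 (0.946), and Srebf2 was still called without that array.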

How the results depend on the processing

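The 27 genes were refitted under 20 alternatives, and 14 of them kept their sign in all. As reported, 7 were lower and 1 higher. The number lower was 11 under normexp background correction (offset 50) and 17 under median centring, against 18.7% and 69.6% of all genes. It was 3 under the replicate block (Mvk, Fdft1 and Msmo1), against 1.89% of all genes. For the first run name alone or a run name covariate it was 0, against 1.87% and 3.37%. The number higher was 2 with the 75th percentile over probes above background on all arrays, against 10.3% of all genes. It was also 2 with probes above background on all 8 arrays (7.11%), with the mean over kept probes (6.2%) and under trended and robust variance (6.86%). It was 0 under median centring (1.65%), the replicate block (1.91%), the first run name alone (1.83%) and a run name covariate (3.24%). Leaving out 1 array gave 1 to 8 lower and 0 to 2 higher, against 4.01% to 10.8% and 3.28% to 6.99% of all genes. For all genes, 1617 lower became 2598 (normexp), 935 (percentile over detected probes), 9688 (median centring), 263 (replicate block), 260 (first run name) and 469 (run name covariate), and 558 to 1509 when 1 array was left out. The 973 higher became 230 under median centring, 2782 without a filter on dim probes, 266 under the replicate block, 255 for the first run name and 451 for a run name covariate, and 457 to 972 when 1 array was left out. Of all calls, 37.6% were higher as reported, compared with 20.6% under normexp, 60.5% with the percentile over detected probes, 2.32% under median centring, 50% under quantile normalization, 49.3% in the series matrix values and 67.6% without a filter. The other gene lists held 45 called genes, compared with 110 under median centring, 18 under the replicate block, 21 with the first run name, 24 for a run name covariate, and 24 to 45 when 1 array was left out.

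The sign of 13 genes turned somewhere, Mylip alone among the called ones. Median centring gave -0.61 for Acat2, -0.37 for Pmvk, -0.089 for Tm7sf2, -0.13 for Nsdhl, -0.19 for Ebp, -0.11 for Sc5d, -0.48 for Insig2, -0.35 for Scap, -0.20 for Mylip and -0.56 for Npc1. This scaling moved the median of all genes by construction, to -0.71. Normexp gave -0.019 for Acat2, -0.16 for Insig2 and -0.044 for Npc1. The percentile over detected probes gave 0.056 for Fdps and 0.086 for Dhcr7, and Dhcr7 was at 0.065 under quantile normalization and 0.056 in the series matrix values. The mean over kept probes gave -0.31 for Npc1 and 0.26 for Npc2, whose probes differ in sign. Both run name settings gave 0.36 for Fdps and 0.29 for Dhcr7. Leaving out 1 array gave -0.33 to 0.25 for Acat2, -0.31 to 0.17 for Fdps, -0.23 to 0.19 for Dhcr7 and -0.015 to 0.17 for Npc1. Except for the median shift, the fewer arrays and the probe signs named here, the cause was not tested. No fit with slide as a block was possible, because a slide held a single group. Dim probes limit what can be seen: 2 of the 73 probes were not kept.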
